A study of Mus musculus with 6 samples.

Results

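Sphingolipid metabolism is described here through 41 genes of the sphingolipid and glycosphingolipid pathways, picked by gene name from a table of 54532 genes, and all 41 names were found. The samples were 3T3 cells, a mouse fibroblast line, labelled as wild-type adipocytes, in 2 groups of 3: one given DMSO, the solvent, and the other given 200 µM baicalin, a flavone glucuronide of Scutellaria roots. All 6 share cell line, genotype and labelled cell type, and the labels name no transgene or deletion. The subline, the way the cells were turned into adipocytes, the length of treatment and whether replicates came from separate cultures are not stated in the sources available, so p-values reflect only how far these 6 samples spread, and that spread may be technical. A level is given as CPM, the read count of a gene scaled to a common library total with TMM factors, for one gene across libraries, and as the authors' FPKM, which corrects for gene length, where genes are compared with each other.

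Sphingolipids are membrane lipids built on a long-chain amino alcohol. Serine palmitoyltransferase joins serine and palmitoyl-CoA in the endoplasmic reticulum, and reduction, acylation and desaturation then give ceramide, from which sphingomyelin, ceramide phosphate and the glycosphingolipids are made. Ceramidases release sphingosine from ceramide, sphingosine kinases turn it into sphingosine 1-phosphate (S1P), a ligand of cell surface receptors, and glycosphingolipids are taken apart again in the lysosome. In fat tissue, ceramide is known for its interference with insulin signalling.

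Total counts per library lay between 16730594 and 18326874. Of the 12 fat cell markers listed, 8 had enough reads to test. Lower in baicalin were 6: Adipoq, Cidec, Plin1, Lpl, Fabp4 and Pparg, at log2 fold changes of -3.54, -3.32, -1.67, -1.56, -0.53 and -0.35. The lipase gene Lipe was higher (0.60), and 1, Cebpa, was neither. Of all tested genes 67.7% were called (edgeR, adjusted p under 0.05), 33.6% higher and 34.1% lower. The summed level of the 12 markers was 1862 to 2042 CPM in DMSO and 892 to 910 CPM in baicalin. The fat cell markers Lep and Slc2a4 had 2 and 6 reads in all libraries together, and Adipoq 97, whereas all 10 fibroblast markers listed were tested. Of these 3 were higher (Thy1, Col3a1 and Vim, at 1.09, 0.44 and 0.36 on the log2 scale) and 1, S100a4, was not called. The 6 lower were Lum, Pdgfra, Col1a2, Col1a1, Pdgfrb and Dcn, at -2.80, -1.13, -0.56, -0.55, -0.34 and -0.18. The summed level of the 10 was 17940 to 18604 CPM in DMSO and 15484 to 15837 CPM in baicalin. In bulk RNA, fewer cells of a type and less RNA per cell cannot be told apart, and the part of this fall in the values below was not tested.

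In the baicalin libraries genes of the module differed from DMSO in both directions, and 2, A4galt and S1pr1, stood far from the rest. Within the module A4galt, the synthase of the globo-series head group, the S1P receptor gene S1pr1 and the lysosomal galactosidase gene Gla rose most, and the sphingomyelin synthase gene Sgms1, the ceramide synthase gene Cers6 and the lysosomal hexosaminidase gene Hexa fell most. Counted from the highest rise of all tested genes, A4galt, S1pr1 and Gla ranked 12, 218 and 746. Counted from the largest fall, Sgms1, Cers6 and Hexa ranked 1572, 2125 and 2742, so larger falls were common. Of the 41 genes, 38 passed the filter on low counts, and edgeR's quasi-likelihood test at an adjusted p under 0.05 called 16 of them higher, 12 lower and 10 neither. Across all 13728 genes tested 67.7% were called, 33.6% higher and 34.1% lower, so the 73.7% called among the tested sphingolipid genes lies close to that background. The median log2 fold change was 0.07, against 0.00 over all tested genes, and the median of its size 0.30 against 0.38. The first of these medians was 0.12 without DMSO replicate 2, 0.11 without DMSO replicate 3 and 0.13 without baicalin replicate 2. Only A4galt and S1pr1, 2 of the 38, were called with a change of 2-fold or more, both upward; of all tested genes 15.0% were, 5.24% higher and 9.71% lower. DMSO and baicalin values were fully separate in 28 of the 38, as in 70.2% of all tested genes. With scaling by library size alone, which shifts the median of all genes by -0.13, 13 were higher and 17 lower. That shift moves smaller log2 fold changes by more than 1.5 times, as for Sptlc2, from 0.34 to 0.21, B4galt5, from 0.33 to 0.21, Cers2, from 0.30 to 0.17, and Cers5, from -0.21 to -0.34. The other three, Sptlc3, B4galt6 and B4galnt1, had too few reads to test: 6, 2 and 51 in all libraries together.

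**Figure D1:**
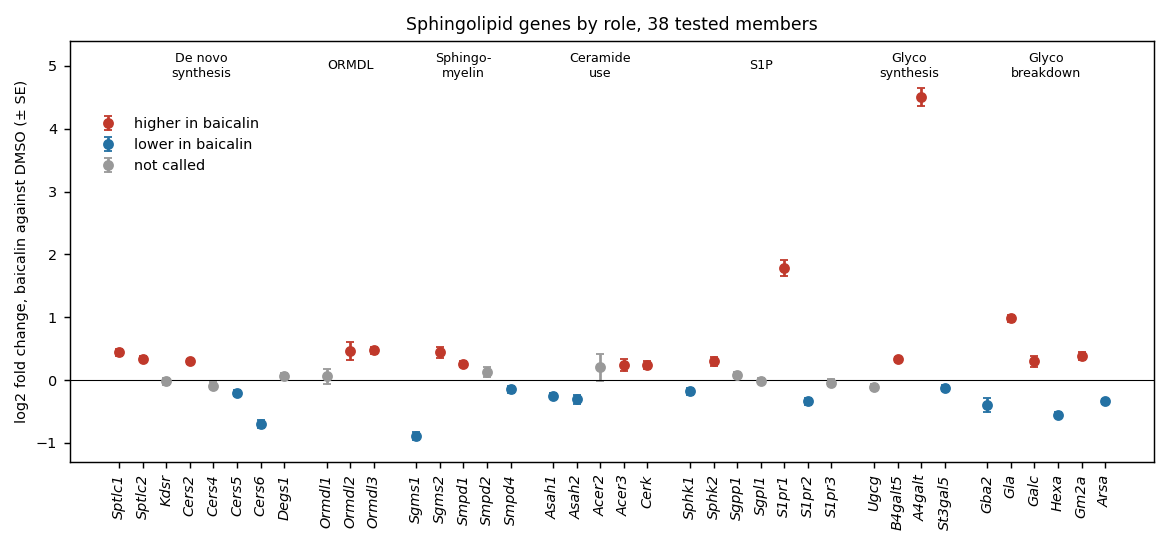
Log2 fold change of baicalin against DMSO (vertical axis, bars ± SE of the edgeR fit) for the 38 tested sphingolipid genes, ordered by role along the horizontal axis; red points were called higher, blue points lower and grey points neither. A4galt at 4.50 and S1pr1 at 1.78 stand above the rest, and the other 36 lie between -0.89 and 0.98.

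The glycosphingolipid genes held the largest rise. A4galt (ENSMUSG00000047878, chromosome 15, 83226722 to 83251774) encodes the galactosyltransferase that turns lactosylceramide into globotriaosylceramide, Gb3. It had 29, 23 and 29 reads in the DMSO libraries and 505, 562 and 684 reads in the baicalin libraries. Every baicalin library was far above every DMSO library, and baicalin replicate 3 was the highest. The mean rose from 1.49 ± 0.15 to 34.0 ± 5.11 CPM (SD over 3 libraries). Its log2 fold change was 4.50 (SE 0.14, adjusted p = 7.46e-31), which placed it 12th from the top of the 13728 tested genes. On the log2(FPKM + 1) scale, which shrinks the change of low genes, the difference was 3.28. Gla (ENSMUSG00000031266, chromosome X, 134588149 to 134601125) encodes the lysosomal enzyme that removes the galactose A4galt adds. Its level was 72.6, 75.1 and 70.5 CPM in DMSO and 155, 138 and 136 CPM in baicalin (fitted log2 change 0.98, SE 0.05, adjusted p = 1.05e-23). The groups were clear of each other, so that transcripts of both the maker and the breaker of Gb3 were higher in baicalin. B3galnt1, of a list of 52 further pathway genes, encodes the enzyme that extends Gb3 to globoside, and it moved the other way, from 76.4, 76.2 and 74.6 CPM in DMSO to 44.7, 37.9 and 41.9 CPM in baicalin (log2 fold change -0.87, adjusted p = 1.07e-19).

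The windows around the start sites of the largest changes that have 1 annotated start, A4galt and Gla among the rises and Cers6 and Hexa among the falls, are printed to show what sequence lies there, with 250 bases before and 50 bases after the start (RefSeq, GRCm38.p6). They are chr15:83251680-83251979 on the minus strand, chrX:134600956-134601255 on the minus strand, chr2:68861191-68861490 on the plus strand and chr9:59539290-59539589 on the plus strand. S1pr1, which rose more than Gla, had no entry among the windows available and is not shown. Capitals mark the motifs found on either strand, chosen after these sequences had been seen: GCGTG, the core bound by the aryl hydrocarbon receptor, TGACNNNGC, the antioxidant response element core, CACGTG, an E-box, and TGANTCA, the AP-1 site. The last overlaps the antioxidant core where GC follows it.
A4galt: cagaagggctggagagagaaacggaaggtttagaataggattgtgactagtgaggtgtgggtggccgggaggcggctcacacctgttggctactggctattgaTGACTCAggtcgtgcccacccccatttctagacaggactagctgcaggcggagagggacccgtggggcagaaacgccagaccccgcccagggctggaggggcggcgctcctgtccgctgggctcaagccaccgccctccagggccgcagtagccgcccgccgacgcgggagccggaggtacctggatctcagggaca
Gla: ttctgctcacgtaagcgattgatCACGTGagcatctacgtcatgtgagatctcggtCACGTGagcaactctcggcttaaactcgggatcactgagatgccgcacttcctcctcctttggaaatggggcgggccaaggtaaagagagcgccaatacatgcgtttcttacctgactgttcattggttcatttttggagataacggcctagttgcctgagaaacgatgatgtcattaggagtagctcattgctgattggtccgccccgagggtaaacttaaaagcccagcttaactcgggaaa
Cers6: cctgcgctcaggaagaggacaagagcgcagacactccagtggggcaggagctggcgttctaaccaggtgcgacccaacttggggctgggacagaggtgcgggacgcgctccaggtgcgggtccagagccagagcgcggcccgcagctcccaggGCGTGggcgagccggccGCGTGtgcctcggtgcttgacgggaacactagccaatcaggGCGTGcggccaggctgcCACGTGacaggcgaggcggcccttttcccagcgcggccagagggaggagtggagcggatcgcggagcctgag
Hexa: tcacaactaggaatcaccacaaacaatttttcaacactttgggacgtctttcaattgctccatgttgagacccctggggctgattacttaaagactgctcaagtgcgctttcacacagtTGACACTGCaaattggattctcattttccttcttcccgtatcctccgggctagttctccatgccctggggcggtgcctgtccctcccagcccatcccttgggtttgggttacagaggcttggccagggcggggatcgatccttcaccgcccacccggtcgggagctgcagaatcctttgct

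The A4galt window holds an AP-1 site 147 bases before the start and none of the other three motifs. The Gla window holds E-boxes 227 and 194 bases before the start, the Cers6 window 3 copies of GCGTG and 1 E-box, and the Hexa window 1 antioxidant core. Among all 32851 windows of this table, 32.4% hold GCGTG, 12.4% TGACNNNGC, 7.15% CACGTG and 7.81% TGANTCA. For the 37 sphingolipid genes with an entry, which have 52 windows, the numbers of windows with each are 28, 5, 9 and 8 (53.8%, 9.62%, 17.3% and 15.4%). Genes with several windows count more than once, and the shares were not compared by a test. These matches describe the letters and were not tested against binding.

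Upstream of the branch, Ugcg, which makes glucosylceramide, was at 64.6, 70.6 and 71.0 CPM in DMSO and 63.1, 61.8 and 66.5 CPM in baicalin, and its groups overlapped. Its log2 fold change of -0.11 (SE 0.05) did not pass the test (adjusted p = 0.0623), but it was called lower without DMSO replicate 1 (adjusted p = 0.0269), with the stricter count filter (0.0356) and with library size alone (-0.23), and stood at 0.04 with length and GC trends removed, a fit in which smooth trends of the counts on exon length and GC content were taken out of each library. B4galt5, which adds the galactose of lactosylceramide, rose from 210 ± 7.29 to 265 ± 2.37 CPM (log2 fold change 0.33, SE 0.04, adjusted p = 1.12e-10), while its paralog B4galt6 had 2 reads in all libraries. St3gal5, the GM3 synthase that starts the gangliosides, was lower by a small amount, 86.8 ± 4.57 against 79.2 ± 3.77 CPM (log2 fold change -0.13, adjusted p = 0.0172). Leaving out DMSO replicate 2, DMSO replicate 3 or baicalin replicate 2 ended that call (adjusted p = 0.0606, 0.13 and 0.205), as did fitting without a count filter (0.15) and on the FPKM scales (0.0812 to 0.185). With length and GC trends removed, the values of B4galt5 and St3gal5 were 0.18 and -0.38, both called. B4galnt1, the GM2 synthase, had 16 reads in DMSO and 35 in baicalin, and it shares exon sequence with Slc26a10 on the other strand, which had 50 reads.

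The ratio of A4galt to St3gal5, which compete for lactosylceramide, does not depend on how libraries are scaled. In FPKM it was 0.0220, 0.0172 and 0.0201 in DMSO and 0.432, 0.487 and 0.559 in baicalin, a 24.9-fold difference. A4galt made up 1.93% ± 0.23 of the summed FPKM of A4galt, St3gal5 and B4galnt1 in DMSO and 32.8% ± 2.89 in baicalin (SD of 3 libraries). St3gal5 remained the more abundant of the 2 in every library. Such within-library ratios were computed for 8 pairs of genes, picked after their values were seen; none of the 8 overlapped between groups, and the exact two-sided permutation test gave p = 0.1 for each (0.1 after Benjamini-Hochberg adjustment), the smallest value that 3 against 3 allows.

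All 6 genes of glycosphingolipid breakdown were called, 3 higher and 3 lower, where 67.7% of all tested genes were called. Hexa (ENSMUSG00000025232, chromosome 9, 59539540 to 59565109), the alpha subunit of the hexosaminidase that degrades GM2, was the most abundant of the 41 by FPKM (328 ± 4.56 in DMSO). Its level was 639, 659 and 653 CPM in DMSO and 461, 434 and 436 CPM in baicalin, with a log2 fold change of -0.55 (SE 0.04, adjusted p = 8.94e-19), without overlap. Gm2a, the activator protein that presents GM2 to this enzyme, rose instead, from 37.5 ± 2.20 to 49.0 ± 2.35 CPM (log2 fold change 0.38, adjusted p = 4.16e-07). Arsa, the arylsulfatase that desulfates sulfatide, fell from 236 ± 5.16 to 186 ± 14.8 CPM (-0.34, adjusted p = 1.02e-08), and Galc, the galactosylceramidase of the next step, rose from 17.9 ± 0.56 to 22.0 ± 2.27 CPM (0.30, adjusted p = 0.00277). The call of Galc was lost with library size alone (adjusted p = 0.0929) and on the FPKM scales (0.0748 to 0.13), and its log2 fold change was 1.04 with length and GC trends removed. Gba2, a glucosylceramidase outside the lysosome, was lower at 9.92 ± 0.96 against 13.0 ± 0.61 CPM (-0.40, adjusted p = 0.00174); it shares exon sequence with Creb3 and Rgp1 on the other strand, which had 4924 and 5544 reads to its 1217, and the strand setting of the counts is not known. The ratio of Gla to Hexa in FPKM was 0.0684 ± 0.0021 in DMSO and 0.197 ± 0.0075 in baicalin (SD of 3 libraries), 2.89-fold higher. With length and GC trends removed, Hexa stood at -0.84 and Arsa at -0.55.

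Of 11 further genes of lysosomal breakdown, 10 were tested, 4 were called and 6 were not, 40.0% called against 67.7% of all tested genes. The plasma membrane sialidase gene Neu3 fell from 7.48, 6.52 and 7.01 CPM to 3.61, 4.12 and 3.90 CPM (log2 fold change -0.85, adjusted p = 6.14e-06). The saposin precursor gene Psap, at 3745 ± 31.0 and 3697 ± 186 CPM, and Glb1, the beta-galactosidase, at 52.1 ± 2.72 and 55.5 ± 2.36 CPM, were not called (adjusted p = 0.68 and 0.147). Psap was called lower with length and GC trends removed (-0.28) and with library size alone (-0.15), and Glb1 higher without DMSO replicate 3 (adjusted p = 0.0456). Glb1 shares 165 bp of exon with Tmppe on the same strand, which had 1257 reads to its 5684.

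**Figure D2:**
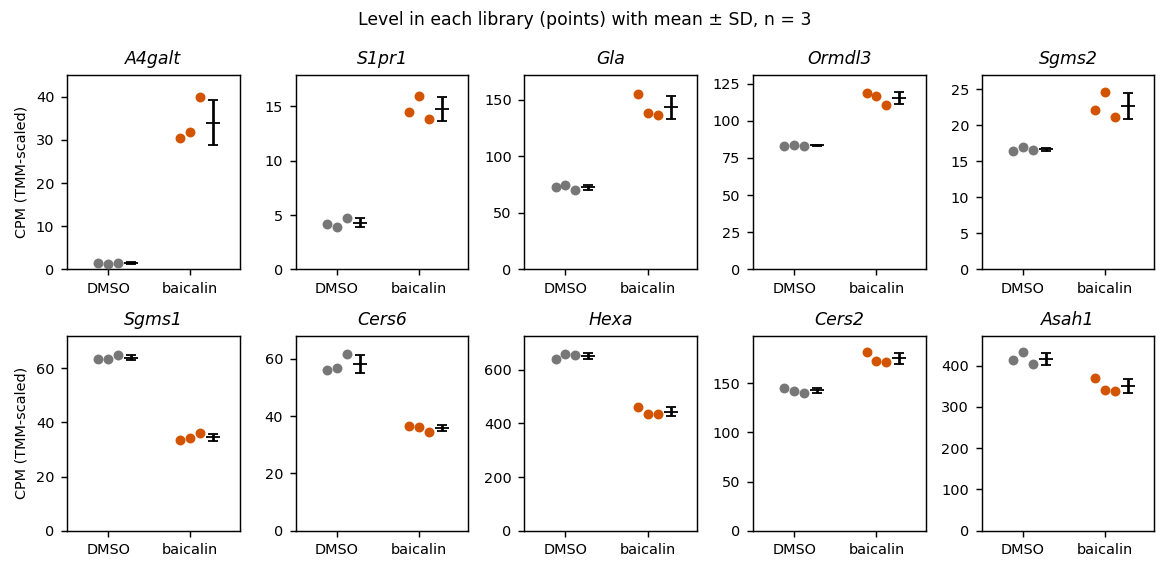
TMM-scaled CPM (vertical axes, each from 0) of 10 sphingolipid genes in each DMSO (grey) and baicalin (orange) library, with the mean ± SD of 3 beside the points. The groups do not overlap for any of the 10, against 28 of the 38 tested sphingolipid genes and 70.2% of all tested genes. A4galt goes from 1.49 to 34.0 CPM and Sgms1 from 64.0 to 34.5 CPM.

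In de novo synthesis, Sptlc1 and Sptlc2 of the first step rose, and genes of the acylation step moved in opposite directions between isoforms. Sptlc1, the subunit common to all forms of the enzyme, was at 42.2, 39.6 and 40.2 CPM in DMSO and 55.1, 55.0 and 55.2 CPM in baicalin (fitted log2 change 0.44, SE 0.06, adjusted p = 2.96e-09). Sptlc2, the catalytic subunit, rose from 101 ± 1.45 to 128 ± 0.49 CPM (0.34, adjusted p = 1.55e-09), and Sptlc3, its alternative, had 2 reads in DMSO and 4 in baicalin. Sptssa, a small activating subunit of the further list, was at 35.3 ± 0.74 and 31.8 ± 1.59 CPM and was not called (-0.15, adjusted p = 0.0515); its groups did not overlap, and it was called lower with limma-voom, RLE factors, library size alone, the stricter filter, the replicate block, 2 of the FPKM fits and without baicalin replicate 2 (adjusted p from 0.000582 to 0.0491). Kdsr, the reductase of the second step, was at 37.7 ± 1.41 and 37.1 ± 0.82 CPM and Degs1, the desaturase that completes ceramide, at 143 ± 7.86 and 149 ± 9.03 CPM. Neither was called (adjusted p = 0.762 and 0.258), but Kdsr was called lower with library size alone (-0.15) and higher with length and GC trends removed (0.33). In that fit Sptlc2 stood at 0.56.

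Ceramide synthases attach the acyl chain, and each has its own chain preference. Cers2, which uses very-long-chain acyl-CoA, had 145, 143 and 140 CPM in DMSO and 182, 172 and 172 CPM in baicalin, with a log2 fold change of 0.30 (SE 0.04, adjusted p = 1.21e-08). Cers6 (ENSMUSG00000027035, chromosome 2, 68861441 to 69114282), which prefers palmitoyl-CoA, had 56.2, 56.9 and 61.6 CPM in DMSO and 36.7, 36.1 and 34.5 CPM in baicalin (-0.70, SE 0.06, adjusted p = 4.22e-15). The groups did not overlap for either gene, and the 2 moved in opposite directions. Cers5, which also prefers palmitoyl-CoA, was lower as well, by -0.21 (84.5 ± 1.66 against 72.9 ± 3.00 CPM, adjusted p = 0.000157). Cers4 was at 53.7 ± 4.78 and 50.5 ± 0.59 CPM and missed the threshold (adjusted p = 0.165), although calls of lower came without DMSO replicate 3 (-0.15) and with library size alone (-0.22), and higher with length and GC trends removed (0.34). As a share of the summed FPKM of these 4 genes, Cers2 went from 52.7% ± 0.26 to 62.4% ± 0.67, Cers5 from 32.4% ± 0.42 to 26.9% ± 0.77 and Cers6 from 8.92% ± 0.59 to 5.28% ± 0.16 (SD of 3 libraries). The ratio of Cers2 to Cers6 in FPKM was 5.93 ± 0.39 in DMSO and 11.8 ± 0.26 in baicalin, and that of Cers2 to Cers5 went from 1.63 ± 0.028 to 2.32 ± 0.090. Cers2 shares 75 bp of exon with Setdb1 on the other strand, and Setdb1 had 47.6% as many reads and was lower in baicalin (-0.24). With length and GC trends removed, Cers2 and Cers6 were still called, at 0.13 and -0.43.

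The ORMDL proteins sit on serine palmitoyltransferase and hold it back when ceramide is high. Ormdl3, the most abundant of the 3 (86.5% of their summed FPKM in DMSO), rose from 82.8, 83.9 and 83.3 CPM to 119, 116 and 111 CPM (log2 fold change 0.47, SE 0.05, adjusted p = 5.13e-13), with no overlap. Ormdl2 was higher by nearly the same amount, 6.28 ± 0.55 against 8.67 ± 0.70 CPM (0.46, adjusted p = 0.00235), but it shares 1114 bp of exon with Dnajc14 on the other strand, which had 8855 reads to its 788 and was itself higher (0.20). Ormdl1 stood at 10.3 ± 0.78 and 10.8 ± 0.98 CPM and was not called (adjusted p = 0.658), though it was called higher with length and GC trends removed (0.37). The enzyme's subunits Sptlc1 and Sptlc2 and its brake Ormdl3 rose by 0.44, 0.34 and 0.47 on the log2 scale. With length and GC trends removed, the rise of Ormdl3 was 0.19 (adjusted p = 0.000205).

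Sphingomyelin is made by 2 synthases, and their transcripts moved apart. Sgms1 (ENSMUSG00000040451, chromosome 19, 32122727 to 32389714), the synthase of the Golgi, had 63.5, 63.3 and 65.0 CPM in DMSO and 33.3, 34.2 and 35.9 CPM in baicalin (fitted log2 change -0.89, SE 0.06, adjusted p = 1.60e-19). Sgms2, the synthase of the plasma membrane, had 16.5, 16.9 and 16.6 CPM in DMSO and 22.1, 24.6 and 21.2 CPM in baicalin (0.44, SE 0.09, adjusted p = 1.33e-05). Neither pair of groups overlapped. The ratio of Sgms1 to Sgms2 in FPKM was 2.33, 2.26 and 2.37 in DMSO and 0.910, 0.839 and 1.02 in baicalin, so that the share of Sgms1 in their summed FPKM went from 69.9% ± 0.50 to 48.0% ± 2.51. Col4a3bp, the transfer protein that carries ceramide to the Golgi for sphingomyelin synthesis, fell as well, from 90.3 ± 4.25 to 59.5 ± 0.84 CPM (-0.60, adjusted p = 1.64e-15). Removing length and GC trends left smaller called falls, -0.52 for Sgms1 and -0.26 for Col4a3bp.

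Sphingomyelinases break sphingomyelin down to ceramide, and the log2 fold changes of Smpd1, Smpd2 and Smpd4 lay between -0.15 and 0.26. Smpd1, the acid enzyme of the lysosome, averaged 75.8 ± 5.12 CPM without and 90.7 ± 6.15 CPM with baicalin (log2 fold change 0.26, adjusted p = 3.60e-05), a call lost with length and GC trends removed (0.02, adjusted p = 0.682). Smpd4, a neutral enzyme, was called lower (43.7 ± 2.57 against 39.5 ± 0.20 CPM, -0.15, adjusted p = 0.0367), but lost its call in every fit that left out 1 library other than DMSO replicate 1 (adjusted p from 0.0598 to 0.241) and with DESeq2 (0.0734), no filter (0.206), FPKM (0.109 to 0.187) and length and GC trends removed (0.548). Smpd2, another neutral enzyme, was at 21.6 ± 0.68 and 23.7 ± 2.28 CPM, was not called (adjusted p = 0.153), and was called higher without baicalin replicate 2 (0.22). It shares 905 bp of exon with Mical1 on the other strand, which had 3545 reads to its 2387.

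**Figure D3:**
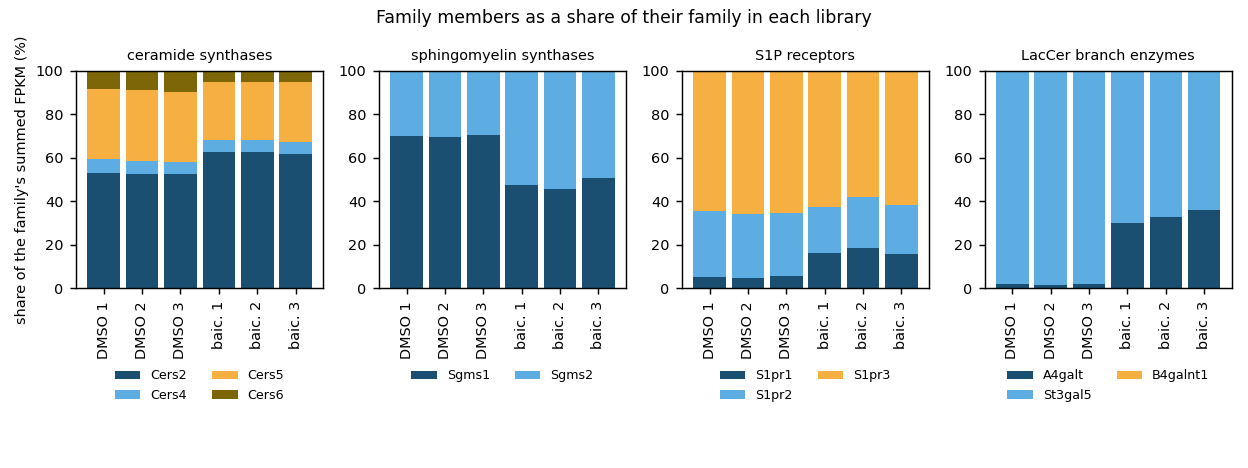
Share of each gene in the summed FPKM of its family (vertical axis, percent) in each of the 6 libraries, for the ceramide synthases, the sphingomyelin synthases, the S1P receptors and the enzymes that use lactosylceramide (LacCer) or its ganglioside product. Each sum counts only the genes of the module, not every gene of the family. In all 3 baicalin libraries the shares of Cers2, Sgms2, S1pr1 and A4galt are larger than in any DMSO library.

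Transcripts of the 2 most expressed ceramidases were lower. Asah1, the acid ceramidase of the lysosome, was at 413, 432 and 404 CPM in DMSO and 371, 342 and 339 CPM in baicalin, with a log2 fold change of -0.25 (SE 0.04, adjusted p = 2.44e-07). Asah2, the neutral ceramidase, was at 32.5 ± 2.34 and 26.2 ± 0.32 CPM (-0.31, adjusted p = 0.000229). For both genes the groups stayed apart, but with length and GC trends removed Asah2 turned to 0.15 and was not called (adjusted p = 0.0559). Of the alkaline ceramidases, Acer3 was called higher (0.24, adjusted p = 0.0152); the call ended when DMSO replicate 1 was left out (adjusted p = 0.1), with library size alone (0.275) and on the FPKM scales (0.13 to 0.192), while with length and GC trends removed its value was 0.86. Its transcript shares stretches of at least 200 bases at 95% identity or more with transcripts of 25 other genes, so its reads are uncertain. Acer2 was at 3.03 ± 0.35 and 3.48 ± 0.40 CPM and was not called (adjusted p = 0.401). Cerk, the ceramide kinase, was higher, 34.3 ± 0.62 against 40.6 ± 1.16 CPM (0.24, adjusted p = 0.000889), a call lost with library size alone (adjusted p = 0.113) and with length and GC trends removed (0.143).

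The S1P genes were led by a receptor. S1pr1 (ENSMUSG00000045092, chromosome 3, 115710433 to 115715072), which couples to inhibitory G proteins and is best known from endothelial cells and lymphocytes, had 78, 69 and 87 reads in DMSO and 241, 283 and 238 reads in baicalin. Every baicalin library held more reads than any DMSO library, and the mean rose from 4.31 ± 0.42 to 14.8 ± 1.09 CPM (SD over 3 libraries), with a log2 fold change of 1.78 (SE 0.13, adjusted p = 1.24e-17). Of 8 endothelial markers, Tie1 and Cldn5 had no read in any library, Pecam1, Cdh5, Kdr and Tek had 8, 7, 4 and 5 reads in all, Emcn had 18, and Vwf was the 1 tested and was higher, with 35 reads in DMSO and 135 in baicalin; their summed level was 0.758 to 1.32 CPM in DMSO and 2.56 to 3.39 CPM in baicalin. The leukocyte marker Ptprc had 6 reads in all, and of 8 macrophage markers 4 were tested, of which Cd14 and Cd68 were higher and none lower; Itgam and Adgre1 had 1 read each, and the summed level was 24.3 to 27.3 CPM in DMSO and 105 to 106 CPM in baicalin, most of it from Cd14. The part of these markers in the S1pr1 value was not tested.

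S1pr2, another receptor of S1P, went the other way, from 67.0, 61.9 and 66.1 CPM in DMSO to 49.5, 52.0 and 52.4 CPM in baicalin (fitted log2 change -0.34, SE 0.05, adjusted p = 1.92e-07). S1pr3, the most abundant receptor by FPKM in both groups, was at 79.9 ± 2.32 and 78.0 ± 4.80 CPM and was not called (-0.04, adjusted p = 0.527), though it was called lower with library size alone (-0.16) and with length and GC trends removed (-0.15). The share of S1pr1 in the summed FPKM of the 3 receptors rose from 5.04%, 4.87% and 5.52% in DMSO to 16.2%, 18.7% and 15.7% in baicalin, and the ratio of S1pr1 to S1pr2 was 4.35-fold higher. By FPKM, the order S1pr3, S1pr2, S1pr1 held in both groups.

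Among the kinases, the lyase and the phosphatase of S1P in the module, Sphk1, Sphk2, Sgpl1 and Sgpp1, the log2 fold changes lay between -0.18 and 0.30. Sphk1, the sphingosine kinase found at the plasma membrane, was at 52.1 ± 2.27 and 45.9 ± 2.56 CPM (log2 fold change -0.18, adjusted p = 0.00503); leaving out DMSO replicate 3 ended the call (adjusted p = 0.0527), as did leaving out baicalin replicate 3 (0.0678) and the unfiltered FPKM scale (0.0864). Sphk2, the kinase of nucleus and mitochondria, was at 29.4 ± 0.68 and 36.1 ± 0.41 CPM (0.30, adjusted p = 0.000166), a call lost with length and GC trends removed (0.0902). Sphk2 shares exon sequence with 2 genes of the other strand, Rpl18, which had 66515 reads to its 3451 and was higher (0.61), and Dbp, which had 1976 and was lower (-1.58). The ratio of Sphk1 to Sphk2 was 1.54 ± 0.062 in DMSO and 1.11 ± 0.052 in baicalin, and carries the same uncertainty. Sgpl1, the lyase that irreversibly degrades S1P, at 238 ± 3.74 and 235 ± 9.13 CPM, and Sgpp1, the phosphatase that returns it to sphingosine, at 60.0 ± 2.50 and 63.6 ± 3.23 CPM, were not called (adjusted p = 0.76 and 0.163). Sgpl1 was called lower with library size alone (-0.14) and Sgpp1 higher with length and GC trends removed (0.17). Sphk1 stood at -0.32 in that fit.

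Among the lipid phosphate phosphatases, which dephosphorylate S1P and related lipids outside the cell, Plpp3 fell from 435, 431 and 438 CPM in DMSO to 216, 198 and 206 CPM in baicalin, with a log2 fold change of -1.07 (SE 0.04, adjusted p = 3.08e-30). Plpp2 rose from 17.2, 17.9 and 18.03 CPM to 33.5, 31.98 and 30.5 CPM (0.85, adjusted p = 5.86e-14). Plpp1 averaged 149.9 ± 7.73 CPM without and 148.8 ± 4.41 CPM with baicalin. Its groups overlapped, and it was not called (-0.01, adjusted p = 0.846). Plpp1 shares 452 bp of exon with Mtrex on the other strand, which had 4398 reads to its 15792. Spns2, an S1P exporter, had 9 reads in all, and it shares 131 bp of exon with Mybbp1a on the other strand, which had 22722. Of the 52 further pathway genes 32 were tested, 9 were higher, 8 lower and 15 not called, 53.1% called against 67.7% of all tested genes, with a median log2 fold change of 0.01. Library size alone made 7 higher and 17 lower, and removal of length and GC trends 10 and 14. Beside Plpp2, the largest rises were those of Cptp, which carries ceramide phosphate (0.52), St3gal3, a sialyltransferase (0.51), and Gltp, which carries glycolipids (0.45). With length and GC trends removed these 4 rises were 0.55, 0.31, 0.25 and 0.16, all called. On the log2(FPKM + 1) scale the fall of Neu3 was -0.51.

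**Figure D4:**
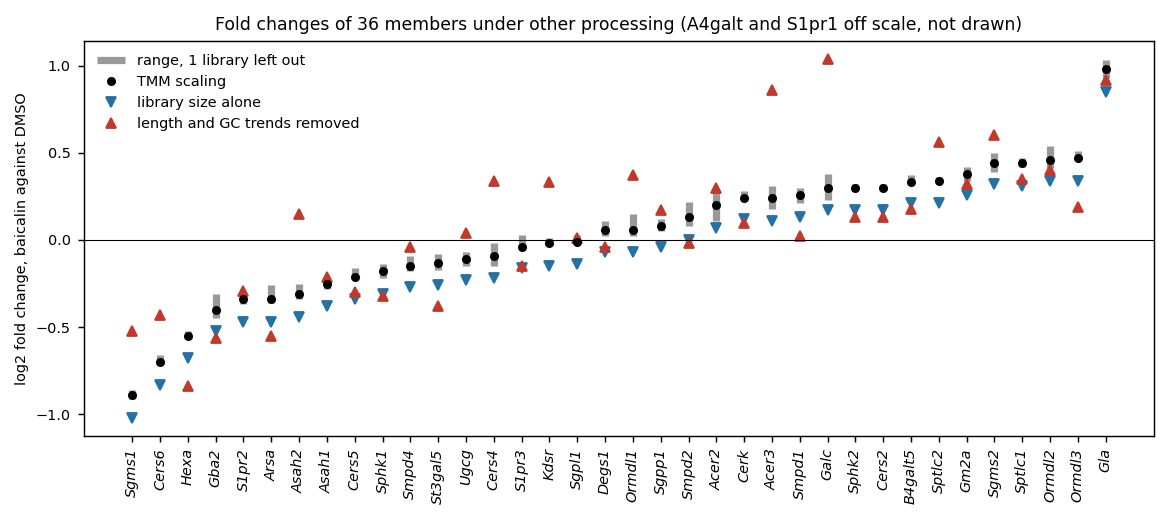
Log2 fold change (vertical axis) of 36 sphingolipid genes, ordered by value, with TMM scaling (black), library size alone (blue) and length and GC trends removed (red); grey bars span the 6 fits that leave out 1 library. Library size alone shifts all genes down together, and removal of length and GC trends moves Galc to 1.04, Acer3 to 0.86 and Asah2 to 0.15.

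Summed over the 41 genes, FPKM was 1005 ± 12.1 in DMSO and 958 ± 33.4 in baicalin (SD of 3 libraries). The sum over the 6 genes of glycosphingolipid breakdown was 429 ± 5.06 and 338 ± 15.3, of which Hexa gave the greater part. The sum over the 6 genes of glycosphingolipid synthesis was 96.6 ± 3.32 and 121 ± 3.90, and that over the 3 ORMDL genes 44.4 ± 0.17 and 61.4 ± 1.75. For the de novo genes it was 159 ± 4.28 and 173 ± 6.58, and for the ceramidases and the ceramide kinase 140 ± 4.67 and 121 ± 5.65. These sums are led by the abundant genes of each group and were not tested.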

How the data were processed

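Per the labels' protocols, libraries were built with NEBNext Ultra reagents from poly-A RNA of 3 µg input per sample. The deposited counts are whole reads per gene from featureCounts 1.5.0-p3, as the series design states, and the deposited FPKM divide them by gene length and depth, as the same source states. The submitters' processing notes name mm10; no source available names the aligner, the annotation or the strand setting. All per-sample columns matched a sample by title. Identifiers were looked up in GENCODE M21 on the same assembly (54495 of 54532 found), which gave coordinates, exon overlaps, exon lengths and transcript GC.

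The count test was edgeR 4.0.16 under R 4.3.3: genes kept by filterByExpr, TMM scaling, a robust quasi-likelihood model of treatment alone, and Benjamini-Hochberg adjustment over all 13728 tested genes, called under 0.05. Every adjusted p comes from this fit unless another is named. The test was also run on simulated counts with means and spread taken from these data, and its outcome is not given here. Within-group replicate pairs differed by more than sampling noise (chi-square per degree of freedom 2.71 to 4.13). Alternatives were DESeq2 1.42.0, limma-voom (limma 3.58.1), RLE factors, library size alone, no filter, a stricter filter (1 CPM or more throughout a group), the replicate block, limma-trend on FPKM with a pseudocount of 1 or 0.1 where 3 libraries reached an FPKM of 1, the same with pseudocount 1 and no filter, lowess trends on exon length and GC removed per library (span 0.3), and leaving out each library. The sphingolipid genes, the further pathway list and the marker lists were chosen with earlier results of these data known. Named are all 41 genes. From the further list come 8 set genes and the 4 largest called rises and falls with a mean of at least 5 CPM. Genes that share exon sequence with a reported gene are named too, except those with at most 2.92% as many reads as that gene. Plpp1 is named beside Plpp2 and Plpp3, and marker genes beside the results they touch. Of the set genes, 2 are not reported here. Figures were drawn with matplotlib 3.10.9. Depth limits a gene without reads to at most 0.179 CPM (3 counts), counting error only.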

Additional observations from a re-analysis of the deposited data

How the results depend on the processing

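Of the 28 called sphingolipid genes, 19 kept direction and call under all 17 alternatives, among them A4galt, S1pr1, Gla, Sgms1, Cers6, Hexa and Ormdl3; 8 lost the call under at least 1, and Asah2 changed sign. The median log2 fold change of the tested members was -0.06 with library size alone, 0.17 without a filter, where 41 were tested, and 0.13 with length and GC trends removed. The further list had 17 and 14 lower genes with library size alone and with the trends removed. Signs turned with library size alone for Degs1 (-0.07), Ormdl1 (-0.07), Sgpp1 (-0.04) and Glb1 (-0.04), without a filter for Kdsr (0.01), Sgpl1 (0.02), S1pr3 (0.00) and Psap (0.02), and with the trends removed for Kdsr (0.33), Cers4 (0.34), Degs1 (-0.04), Smpd2 (-0.02), Asah2 (0.15), Sgpl1 (0.01), Ugcg (0.04) and Glb1 (-0.11). The cause was not tested. With 1 library left out, values ranged from -0.03 to 0.01 for Kdsr, -0.02 to 0.03 for Sgpl1, -0.06 to 0.03 for S1pr3 and -0.05 to 0.03 for Psap; 16 to 17 members were higher and 10 to 13 lower. Deviations from the group mean correlated at -0.0024 to 0.037 between same-numbered samples and at -0.058 to 0.026 between differently numbered ones. With 3 libraries per group, such small values cannot decide whether the numbers pair the samples. With the replicate block 16 members were higher and 12 lower, and 4660 and 4731 of all genes. Depth limits Acer2 most, whose standard error of 0.21 was the widest among tested members; 3 members had too few reads to test.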
